A study of Mus musculus with 24 samples.

Results

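MHC class I antigen presentation was examined through 30 genes in FACS-sorted sensory neurons with and without Tsc2. The genes code for the class I heavy chains, the light chain, and the proteins that cut, carry and load the peptides these molecules display. They were chosen by symbol with the genotype comparison of the same samples already known, from 47643 gene identifiers, and all 30 were found once each in the count data. The genotype values of these genes therefore describe them and test nothing. Sex did not enter the choice of the genes. Neighbouring genes were compared by the same genotype contrast in the same mice, so their calls are no independent test.

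Each library was made from 100 ZsGreen-positive (GFP-positive) cells of the L4 dorsal root ganglion (DRG), taken contralateral to a sciatic nerve crush made 3 days earlier in mice aged 8 to 9 weeks. All mice carried Nav1.8-Cre, the Rosa26-ZsGreen reporter and a floxed Tsc2 allele. Control mice were Tsc2 flox/+ and Nav-Tsc2 mice were Tsc2 flox/null, so the genotypes differed in the other Tsc2 allele. There were 4 mice per genotype, 2 male and 2 female, and 3 libraries per mouse, whose counts were summed. Nav1.8-Cre acts in the sensory lineage that has expressed Nav1.8, chiefly nociceptors, whereas the null allele was present in every cell of the Nav-Tsc2 mice. The strain was labelled as a mix of C57BL/6 and AJ in both genotypes.

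Class I molecules carry peptides from inside the cell to its surface, where CD8 T cells read them. The proteasome cuts proteins into peptides, TAP moves these into the endoplasmic reticulum, tapasin helps to load them, and only heavy chains paired with beta-2 microglobulin are stable at the surface. Neurons keep most of this pathway low at rest and are known to raise it after interferon. Most heavy chain genes, Tap1, Tap2, Psmb8 and Psmb9 lie together in the H2 region of chromosome 17.

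Tsc2 itself is on chromosome 17 (chr17:24595816-24632630, mm10). The H2 region, taken from the first to the last gene with an H2 symbol (chr17:33974659-37483552, 3.51 Mb), begins 9.34 Mb from the end of Tsc2 and holds 22 of the 30 genes. Tapbp lies just before it, 9.28 Mb from Tsc2, and 7 genes are on chromosomes 2, 6, 8, 13 and 14. The null allele and the wild-type allele of Tsc2 each come with their own copy of the neighbouring genes, so loss of Tsc2 and any difference between H2 alleles inherited with it cannot be told apart in these groups. Reads were aligned to mm10 alone. How well reads of H2 alleles that differ from mm10 were counted was not tested.

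Depth was between 12210899 and 28641787 gene counts per control library and between 8339220 and 34228180 per Nav-Tsc2 library. Alignments to more than 1 place, which are not counted to genes, made up 37.5 to 39.6% of the control and 39.3 to 42.6% of the Nav-Tsc2 totals. A read may enter this number more than once, so these are not shares of reads. Tsc2 was at 13.4, 24.6, 21.5 and 24.1 CPM (counts scaled to 1000000 per mouse, normalized by TMM) in control mice 1 to 4 and at 8.70, 8.51, 7.30 and 10.9 CPM in Nav-Tsc2 mice 1 to 4, with no overlap (log2 fold change -1.24 ± 0.22 SE, edgeR adjusted p = 0.004). Neuronal markers were high in both genotypes, between 13780 and 17290 CPM summed over 8 genes. Genes of satellite glia and Schwann cells were also present, at 3125 to 3256 CPM in control and 2086 to 2695 CPM in Nav-Tsc2 mice over 14 genes. S100b, 1 of these genes, was at 712 to 1112 CPM in control and 27.9 to 187.5 CPM in Nav-Tsc2 mice.

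The sequences before the start of 4 genes are shown because these genes differed between genotypes in opposite directions. They are the 250 bases before the RefSeq start in GRCm38.p6, read along the gene, for B2m (chr2:122147437-122147686, plus strand), H2-K1 (chr17:34000348-34000597, minus strand), H2-D1 (chr17:35262844-35263093, plus strand) and H2-T22 (chr17:36042743-36042992, minus strand). Capitals mark matches on either strand to 4 motifs, namely the interferon-stimulated response element core TTTCNNTTT, the NF-kB site GGGGATTCC, the CCAAT box and the cAMP response element core TGACG. No match overlapped another in these 4 sequences.
B2m: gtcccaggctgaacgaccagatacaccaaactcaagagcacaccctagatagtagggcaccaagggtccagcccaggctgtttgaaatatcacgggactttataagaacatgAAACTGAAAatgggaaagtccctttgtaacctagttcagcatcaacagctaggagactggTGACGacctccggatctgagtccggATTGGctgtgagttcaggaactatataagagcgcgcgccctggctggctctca
H2-K1: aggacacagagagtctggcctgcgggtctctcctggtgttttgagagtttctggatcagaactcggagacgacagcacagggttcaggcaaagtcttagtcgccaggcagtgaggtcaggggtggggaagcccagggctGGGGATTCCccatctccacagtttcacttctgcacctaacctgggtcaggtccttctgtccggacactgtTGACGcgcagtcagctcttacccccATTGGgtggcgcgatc
H2-D1: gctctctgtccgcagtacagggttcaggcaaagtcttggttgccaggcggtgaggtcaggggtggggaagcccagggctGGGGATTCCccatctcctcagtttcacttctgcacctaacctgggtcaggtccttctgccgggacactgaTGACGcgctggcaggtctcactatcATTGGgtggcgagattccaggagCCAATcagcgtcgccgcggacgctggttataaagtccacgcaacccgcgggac
H2-T22: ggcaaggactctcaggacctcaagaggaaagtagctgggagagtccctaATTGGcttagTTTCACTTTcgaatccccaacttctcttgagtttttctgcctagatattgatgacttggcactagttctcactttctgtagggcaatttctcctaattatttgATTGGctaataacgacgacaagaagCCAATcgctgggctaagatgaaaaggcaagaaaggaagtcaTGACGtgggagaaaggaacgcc

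H2-K1 and H2-D1 shared an unbroken run of 47 bases in this window, which includes the NF-kB match, and the longest run that H2-T22 and H2-D1 shared was 10 bases. B2m and H2-T22 held the interferon element core, which 9.52% of 27025 mouse promoters of this length hold, and among the 24 of the 30 genes with a sequence H2-T3 and H2-T23 held it too. Only exact matches were counted. H2-K1 and H2-D1 both hold TTTCACTTC, which differs from this core in its last letter and was left unmarked. A promoter without a match may therefore still hold an interferon element. The NF-kB letters were in H2-K1, H2-D1, H2-Q6 and H2-Q7 and in 0.218% of all promoters. The CCAAT box was in 16 of the 24, against 34.5% of all, and the cAMP response element core in 12 of the 24, against 17.9% of all. Of the 11 promoters of genes that were higher in Nav-Tsc2 mice, 1 held the interferon core, 3 the NF-kB letters, 9 the CCAAT box and 7 the TGACG core. Of the 3 promoters of genes that were lower, 1, 0, 2 and 1 did, and of the 9 promoters of genes not called, 1, 1, 5 and 4 did. These motifs were picked for what is known of class I promoters, and a match is only a description of the letters.

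Of the 30 genes, 29 passed the filter on low counts, and H2-T3 did not. A gene was called when its edgeR adjusted p was under 0.05 and its log2 fold change was over 0.5 or under -0.5. By this rule 12 were higher in Nav-Tsc2 mice and 4 were lower, while 9.12% of all 17178 genes tested were called higher, 8.00% lower and 17.1% in either direction. The mice of the genotypes did not overlap in CPM for 19 of the 29, against 26.9% of all genes. Nothing is read from these shares, because this contrast was among the reasons for choosing the genes. In addition, 10 of the 29 passed the filter only through the Nav-Tsc2 mice, meaning that not all control mice reached its limit of 0.18 CPM. Selection in this way favours higher values there.

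**Figure D1:**
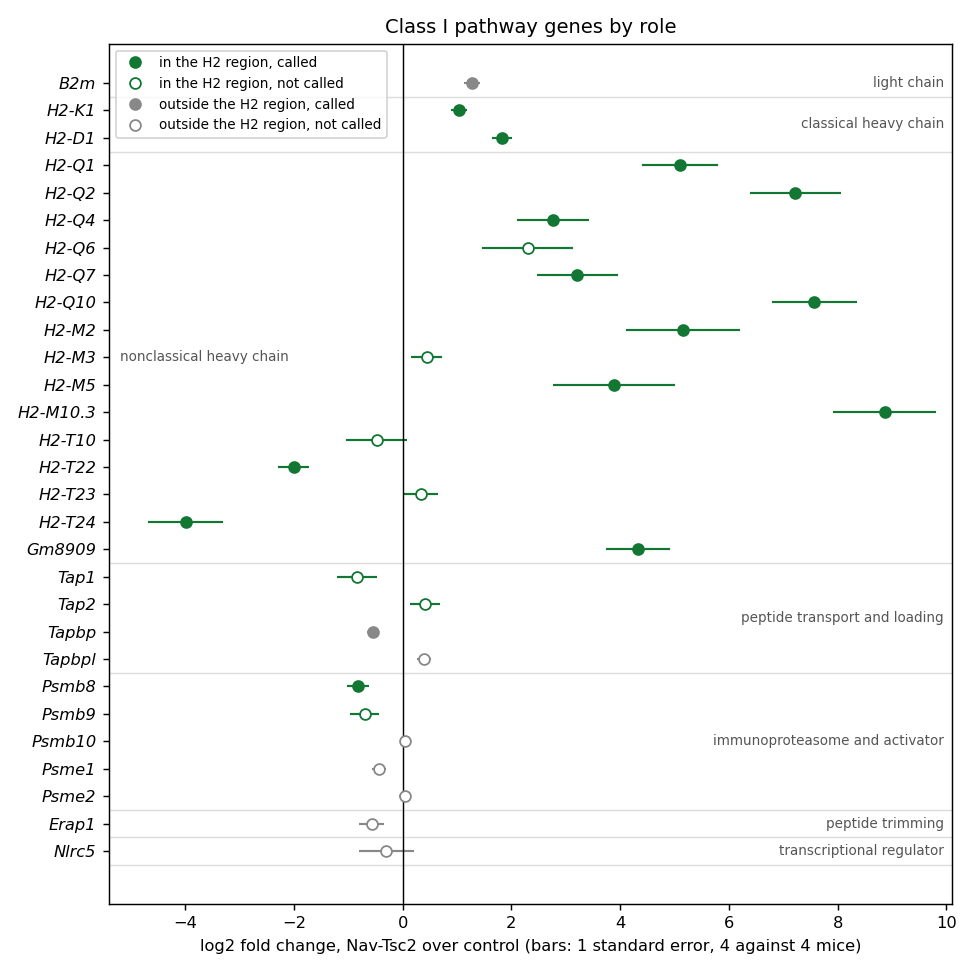
Log2 fold change (Nav-Tsc2 over control, with 1 standard error, 4 against 4 mice) of the 29 genes tested, grouped by role. Filled points passed the call and open points did not, green points lie in the H2 region and grey points outside it. The heavy chains ranged from -3.99 for H2-T24 to values above 7 for H2-Q2, H2-Q10 and H2-M10.3, whose control counts were 3 or fewer and whose fitted values depend on the prior count, while the transport, proteasome, trimming and regulator genes stayed between -0.84 and 0.41.

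B2m, the light chain that every class I heavy chain needs, was the most abundant of the 30 per kilobase of exon in both genotypes. It was at 183, 232, 189 and 160 CPM in control mice 1 to 4 and at 446, 377, 458 and 569 CPM in Nav-Tsc2 mice 1 to 4. The highest control mouse was below the lowest Nav-Tsc2 mouse, and the 12 libraries of each genotype did not overlap either. The log2 fold change was 1.27 ± 0.15 (SE), or 2.42-fold. B2m is on chromosome 2 (chr2:122147686-122153083), and each of its 50-base windows was unique among annotated exons.

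H2-K1, which codes for the classical heavy chain of the K locus, was at 35.2, 32.5, 50.0 and 44.5 CPM in control mice and at 82.0, 85.3, 73.4 and 90.5 CPM in Nav-Tsc2 mice (log2 fold change 1.03 ± 0.15 SE). H2-D1, the classical heavy chain of the D locus, was at 96.0, 65.5, 116 and 69.4 CPM in control mice and at 296, 348, 264 and 324 CPM in Nav-Tsc2 mice (log2 fold change 1.83 ± 0.19 SE). Neither gene overlapped between genotypes, by mouse or by library. H2-D1 exceeded H2-K1 by a ratio of CPM of 1.56 to 2.73 in the control mice and 3.58 to 4.08 in the Nav-Tsc2 mice, so the 2 classical genes did not differ between genotypes by the same factor. Together they made up 66.9 to 80.9% of the CPM of all 18 heavy chain genes in control and 88.7 to 91.0% in Nav-Tsc2 mice. The sum over the 18 heavy chain genes went from 174 ± 36.2 CPM (SD, n = 4) to 436 ± 44.6 CPM (SD, n = 4).

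Per kilobase of exon, the control mean of B2m was 222 CPM, that of H2-D1 33.6 CPM and that of H2-K1 13.8 CPM, and in Nav-Tsc2 mice they were 538, 120 and 28.2 CPM. The ratio of B2m to the sum of both classical heavy chains, per kilobase, was 3.55 to 7.41 in control and 2.68 to 4.23 in Nav-Tsc2 mice. These ranges overlapped.

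**Figure D2:**
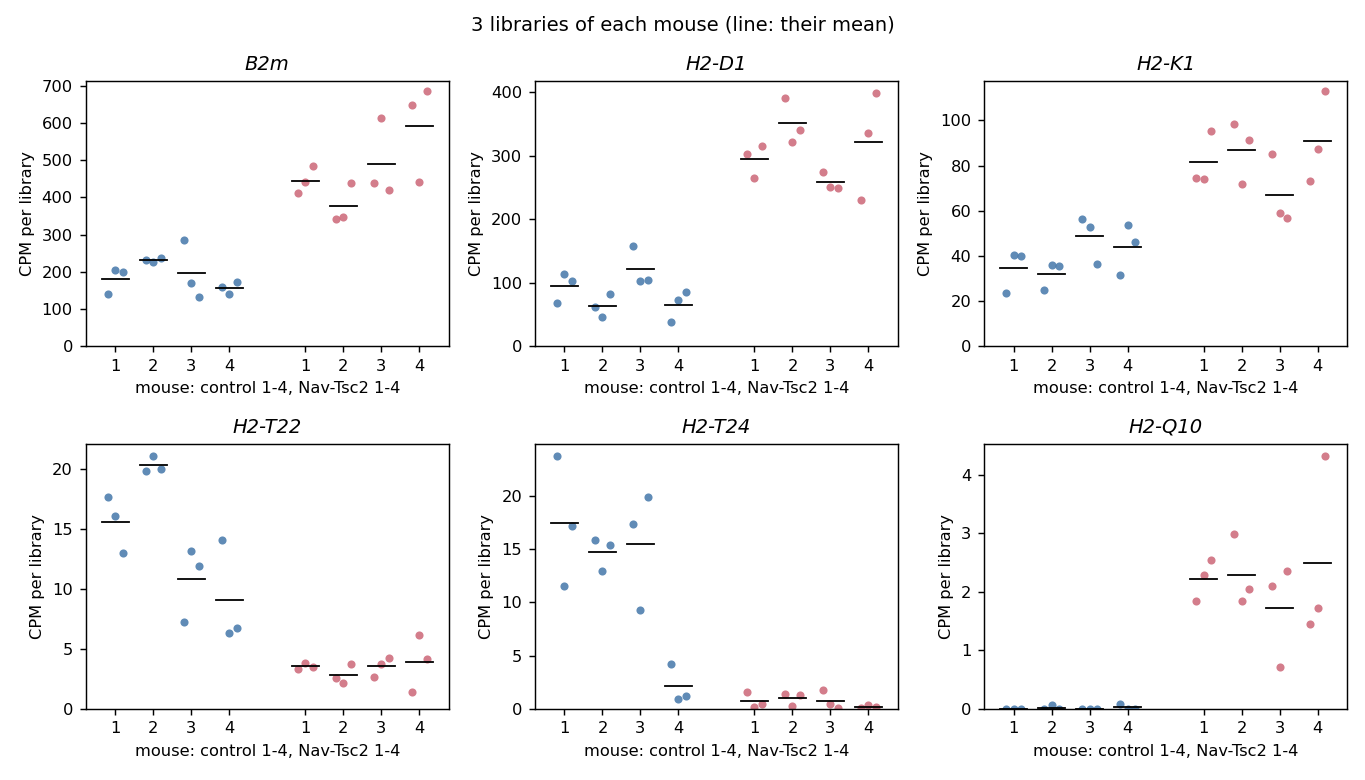
CPM of 6 genes in each of the 24 libraries, with the 3 libraries of a mouse side by side and a line at their mean, control in blue and Nav-Tsc2 in red. B2m, H2-D1 and H2-K1 were higher in every Nav-Tsc2 library than in any control library, H2-T22 was lower in every Nav-Tsc2 library, H2-T24 was low in control mouse 4 in all 3 libraries, and H2-Q10 was at or near 0 in all control libraries.

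The nonclassical heavy chain genes of the Q cluster were low in control mice, at 0 to 1.21 CPM. H2-Q10 codes for a secreted heavy chain best known from liver. It was at 0, 0.0189, 0 and 0.0201 CPM in control mice and at 2.22, 2.21, 1.99 and 2.37 CPM in Nav-Tsc2 mice. That is 2 counts in 2 of 12 control libraries against 495 counts spread over all 12 Nav-Tsc2 libraries, a ratio of 238 with an exact 95% counting interval of 65.6 to 1972. H2-Q2 was at 0.0339, 0, 0 and 0.0201 CPM in control mice and at 2.47, 2.83, 1.55 and 2.69 CPM in Nav-Tsc2 mice, 3 against 534 counts (ratio 171, interval 58.3 to 833). H2-Q1 was at 0.0189 to 0.0724 CPM in control and 0.833 to 2.22 CPM in Nav-Tsc2 mice (log2 fold change 5.10 ± 0.70 SE).

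H2-Q7 and H2-Q6 code for forms of the Qa-2 antigen. H2-Q7 was at 0.0339, 0.227, 0.0543 and 0.261 CPM in control mice and at 1.05, 0.938, 1.44 and 1.95 CPM in Nav-Tsc2 mice (log2 fold change 3.21 ± 0.75 SE). H2-Q6 was at 0.186, 0.0379, 1.21 and 0.341 CPM in control mice and at 1.65, 1.93, 2.21 and 3.00 CPM in Nav-Tsc2 mice. The mice did not overlap, yet H2-Q6 was not called (2.30 ± 0.83 SE), and most of the control signal came from library B of control mouse 3, at 2.20 CPM. Without that mouse H2-Q6 was called higher, with a log2 fold change of 3.52. H2-Q4 was at 0.186, 0.663, 0.108 and 0.120 CPM in control mice and at 2.12, 1.84, 1.797 and 1.59 CPM in Nav-Tsc2 mice (2.76 ± 0.66 SE). The Q genes resemble each other, and 63.6 to 85% of their 50-base exon windows were unique among annotated genes, so reads may be shared or lost among them.

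The M cluster held a similar contrast. H2-M10.3 belongs to a family known from vomeronasal sensory neurons. It had 0 counts in all 12 control libraries and 240 counts in the Nav-Tsc2 libraries, each of which had some, at 0.782, 0.849, 1.19 and 1.37 CPM per mouse. Against a floor of 3 counts over the control group (0.0138 CPM) it was at least 77.0-fold higher. H2-M2 was at 0, 0, 0.0362 and 0 CPM in control mice and at 0.411, 0.548, 0.294 and 0.372 CPM in Nav-Tsc2 mice, 2 against 91 counts (ratio 43.8, interval 11.8 to 367). H2-M5 was at 0.407, 0.0189, 0 and 0.0602 CPM in control and 2.06, 1.04, 1.29 and 3.01 CPM in Nav-Tsc2 mice (3.89 ± 1.12 SE), and its call was lost without control mouse 2 or 4 and without any 1 of the Nav-Tsc2 mice. H2-M2 and H2-M5 had 98.4 and 99.1% of their windows unique, and H2-M10.3 had 87.0%.

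H2-M3, which presents peptides that begin with formylmethionine, was unlike its neighbours. It was at 17.6, 7.12, 18.6 and 9.74 CPM in control mice and at 19.3, 15.8, 17.2 and 19.7 CPM in Nav-Tsc2 mice, and the groups overlapped (0.44 ± 0.29 SE, not called). Control mice 2 and 4 were low and the other 2 control mice were within the Nav-Tsc2 range.

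The T cluster went both ways. H2-T22, a ligand of some gamma-delta T cell receptors, was at 15.2, 20.3, 11.5 and 8.62 CPM in control mice and at 3.54, 2.76, 3.30 and 4.28 CPM in Nav-Tsc2 mice, with no overlap by mouse or library (log2 fold change -2.004 ± 0.29 SE). H2-T10, its close relative, was at 4.51, 0.549, 2.62 and 3.33 CPM in control and 1.40, 2.42, 1.60 and 2.47 CPM in Nav-Tsc2 mice, and the groups overlapped (-0.48 ± 0.56 SE). The pair share 31.2% of the windows of H2-T22, of which 46.5% are unique, so their split is uncertain.

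H2-T24 was at 16.8, 14.9, 13.6 and 1.97 CPM in control mice and at 0.761, 0.884, 1.09 and 0.220 CPM in Nav-Tsc2 mice (-3.99 ± 0.70 SE), and 96.8% of its windows were unique. The genotypes were apart in all 8 mice, but control mouse 4 was closer to the Nav-Tsc2 mice than to the other control mice, and its 3 libraries were at 4.25, 0.949 and 1.23 CPM, where the other 9 control libraries were at 9.27 to 23.8 CPM. H2-T22 in control mouse 4 was at 8.62 CPM, the lowest of the control mice. Gm8909, an unnamed class I heavy chain gene of the same cluster, was at 0.0339, 0.114, 0.0905 and 0.161 CPM in control and 1.62, 2.71, 1.52 and 2.23 CPM in Nav-Tsc2 mice (4.32 ± 0.59 SE). H2-T23, which codes for Qa-1, the ligand of the NKG2 receptors of natural killer cells, overlapped (2.19 to 4.49 against 3.61 to 4.76 CPM). H2-T3, the thymus leukemia antigen gene, had 12 control and 41 Nav-Tsc2 counts and was not tested, and its highest mouse was Nav-Tsc2 mouse 4 at 0.559 CPM.

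**Figure D3:**
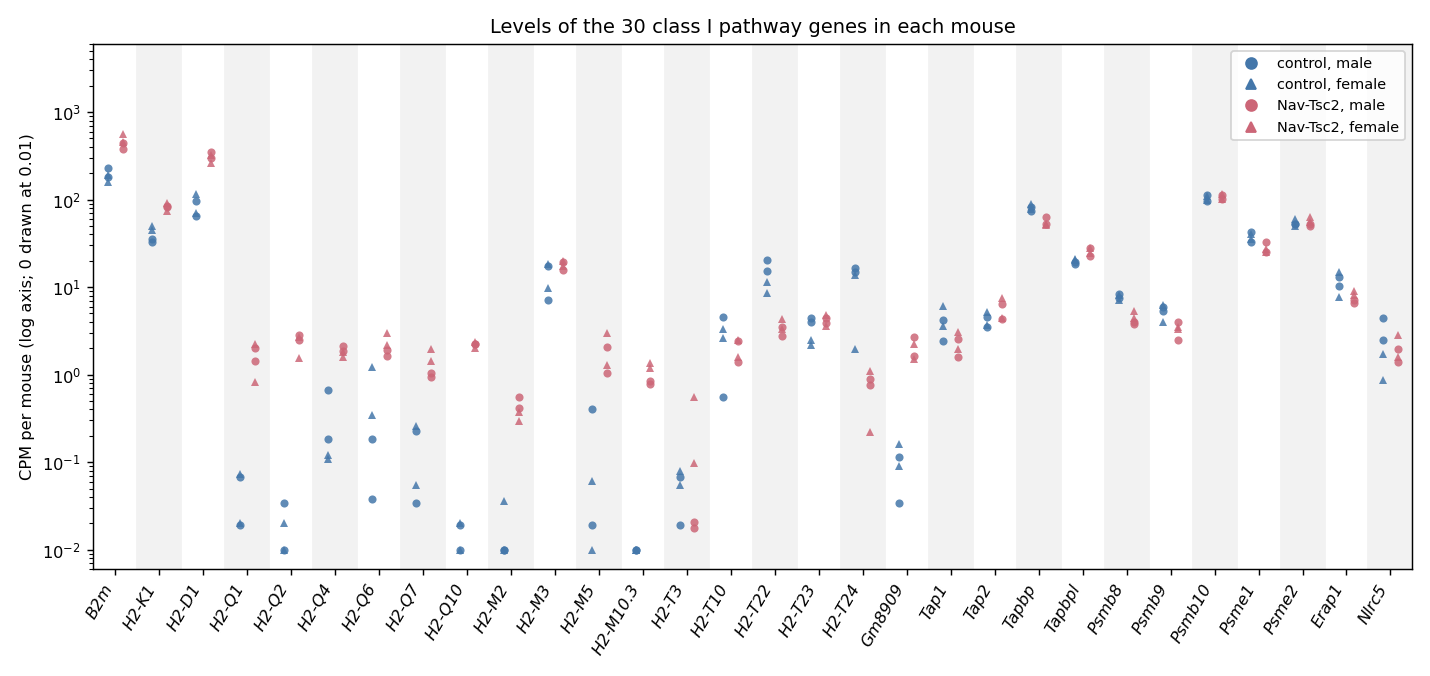
CPM of the 30 genes in each of the 8 mice on a log axis, control in blue and Nav-Tsc2 in red, circles for males and triangles for females, with values of 0 drawn at 0.01. B2m, H2-K1, H2-D1 and the Q genes separate the genotypes upward, H2-T22 and H2-T24 downward, and Psmb10, Psme2 and H2-M3 overlap.

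The genes that supply peptides did not share the higher level of the light and classical heavy chains. Tap1 and Tap2 code for the paired chains of the peptide transporter. Tap1 was at 4.24, 2.42, 3.64 and 6.11 CPM in control and 1.60, 2.55, 1.94 and 3.06 CPM in Nav-Tsc2 mice (-0.84 ± 0.37 SE), and Tap2 was at 3.50 to 5.21 CPM against 4.28 to 7.45 CPM (0.41 ± 0.28 SE). Neither was called and both overlapped. Tapbp, which codes for tapasin, was at 82.6, 74.0, 88.5 and 78.5 CPM in control mice and at 52.9, 64.0, 52.4 and 51.6 CPM in Nav-Tsc2 mice, and it was called lower (-0.55 ± 0.10 SE). Tapbpl, the tapasin-related peptide editor on chromosome 6, was at 18.5 to 21.0 CPM against 22.98 to 28.1 CPM without overlap, but its fold change was under the limit (0.39 ± 0.12 SE).

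Psmb8, a catalytic subunit of the immunoproteasome, was at 7.51, 8.31, 7.14 and 8.23 CPM in control mice and at 3.99, 3.80, 5.29 and 4.49 CPM in Nav-Tsc2 mice, and it was called lower (-0.83 ± 0.20 SE), a call that was lost without Nav-Tsc2 mouse 1 or 2. Its ratio to Psmb5, the constitutive subunit it replaces, was 0.152 to 0.179 in control and 0.0759 to 0.119 in Nav-Tsc2 mice. Psmb9 was at 4.00 to 6.26 CPM against 2.48 to 3.99 CPM and was not called (-0.70 ± 0.27 SE). Psmb10, the remaining immunoproteasome subunit, on chromosome 8, was at 97.7 to 113 CPM against 102 to 115 CPM (0.04 ± 0.09 SE). Psme1 and Psme2 code for the activator cap PA28. Psme1 was at 32.6 to 42.4 CPM against 25.3 to 33.0 CPM (-0.44 ± 0.13 SE), and Psme2 was at 49.8 to 59.4 CPM against 50.2 to 63.8 CPM (0.04 ± 0.11 SE). Psme2 shares 28.3% of its windows with Psme2b.

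Erap1, which trims peptides in the endoplasmic reticulum, was at 7.76 to 15.1 CPM against 6.67 to 9.11 CPM (-0.57 ± 0.23 SE). Nlrc5, the transactivator of class I genes, was at 2.49, 4.49, 1.74 and 0.864 CPM in control mice and at 1.95, 1.40, 1.58 and 2.83 CPM in Nav-Tsc2 mice (-0.30 ± 0.51 SE). Both overlapped and neither was called. By place, 14 of the 21 genes tested in the H2 region were called, 11 higher and 3 lower, with a median log2 fold change of 1.83. It was also 1.83 with H2-M10.3 at its bound. In a limma fit of the 24 libraries, which did not keep H2-Q1, H2-Q7, H2-M2 and H2-M10.3, the median was 0.56. The median of 1.83 includes the 10 genes that passed the filter only through the Nav-Tsc2 mice, and it is a description that supports no difference between the places. Of the 8 genes outside the H2 region 1 was higher and 1 lower, with a median of -0.13. The median of all 17178 genes was 0.01. Among the 4 genes in the H2 region that code for no heavy chain, 0 were higher and 1 was lower.

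Neighbouring genes were taken by position and not by their values, and they include the 7 other class I heavy chain genes given below. In the H2 region, 96 other genes were tested, of which 20 were called higher and 7 lower, or 28.1% against 17.1% of all genes. On the rest of chromosome 17, 41 of 660 other genes were higher and 45 lower (13.0%), and on other chromosomes 17.2% of 16334 were called. By distance from Tsc2 in steps of 5 Mb, 29.9% of the 77 other genes at 10 to 15 Mb were called, 13.4% of the 134 at 0 to 5 Mb and 14.8% of the 88 at 5 to 10 Mb. Other steps with at least 20 genes ranged from 4.17% (24 genes at 10 to 5 Mb on the other side of Tsc2) to 23.8% (21 genes at 15 to 10 Mb on that side), with 21.7% of 23 genes at 40 to 45 Mb. The median absolute log2 fold change was 0.50 at 10 to 15 Mb and 0.41 over all genes. Of the 96 neighbours, 14 had passed the low count filter only through the Nav-Tsc2 mice. This selection favours higher values there but does not force them, as the neighbour H2-M10.2 among the 14 had a log2 fold change of -0.25. The 14 make up 6 of the 20 called higher. Leaving out the 6 libraries with over 20 CPM of the pericyte gene Rgs5, a choice made after seeing the data, left 7 of 92 neighbours higher and 4 lower (12.0%), against 9.35% of all 16619 genes tested in the same way, so the share of neighbours was then near that of all genes.

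**Figure D4:**
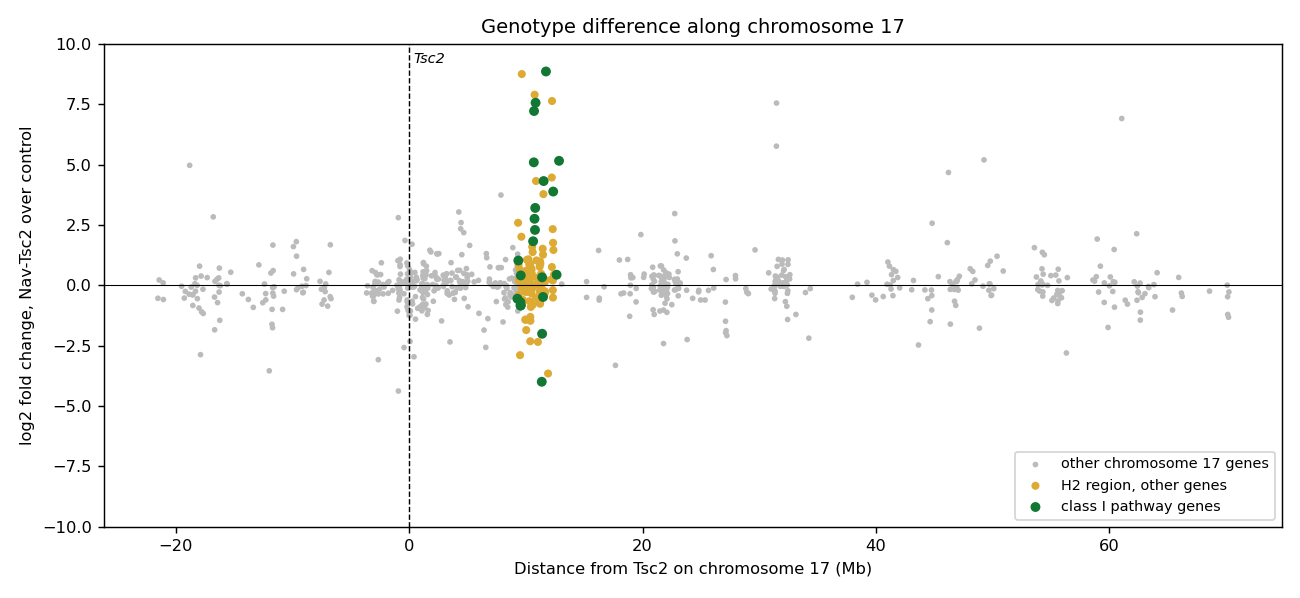
Log2 fold change (Nav-Tsc2 over control) of chromosome 17 genes against their distance from Tsc2 in Mb. Class I pathway genes are green, other genes of the H2 region yellow and all other genes grey. At 10 to 15 Mb, 6 of 77 genes outside the pathway list were over 3 or under -3. Of these 6, 5 had passed the low count filter only through the Nav-Tsc2 mice, a selection that favours higher values there.

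Among these neighbours, Gm20513, an antisense transcript, was at 0 to 0.0379 CPM in control and 4.71 to 9.47 CPM in Nav-Tsc2 mice (3 against 1592 counts, ratio 511, interval 174 to 2478). Trim40 had 2 control counts and 502 Nav-Tsc2 counts (ratio 242, interval 66.5 to 2000). Both genes passed the low count filter only through the Nav-Tsc2 mice, a selection that favours higher values there, so their values are a description. Clic1, a chloride channel family gene, rose, with 264 to 315 CPM in control and 464 to 532 CPM in Nav-Tsc2 mice (0.75 ± 0.09 SE, edgeR adjusted p = 0.000416). Vwa7 fell, with 33.8 to 76.2 CPM in control and 8.27 to 14.3 CPM in Nav-Tsc2 mice (-2.31 ± 0.26 SE, adjusted p = 0.000398). Flot1, a lipid raft protein gene, was lower (-0.70 ± 0.09 SE, adjusted p = 0.000762), as was Atp6v1g2, a subunit of the vacuolar proton pump (-0.80 ± 0.12 SE, adjusted p = 0.00135). Whether the counting used strand is not given in the sources used here. The exons of Gm20513 overlap those of other annotated genes by 0%. Reads of the gene on its other strand may still be mixed in where they fall outside that gene's annotated exons.

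Presence in every mouse of 1 genotype and near absence in the other was looked at after these values were seen. Such genes pass the filter only through the Nav-Tsc2 mice, and the counts are a description. With at most 3 counts in each control mouse and more than 10 in each Nav-Tsc2 mouse, 4 of the 29 pathway genes and 3 of the 96 neighbours met the limit, as did 3 of 660 genes on the rest of chromosome 17 and 103 of 16334 on other chromosomes. In the reverse direction, with the genotypes exchanged, 0 genes of chromosome 17 and 2 of other chromosomes did.

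Of 16 other class I heavy chain genes, 7 were tested and 2 were called higher. The 7 are also among the 96 neighbours, and the 2 are among the 20 neighbours called higher. H2-K2, a transcribed pseudogene, was at 0.373 to 1.23 CPM in control and 3.61 to 5.35 CPM in Nav-Tsc2 mice (2.59 ± 0.41 SE, adjusted p = 0.0022). H2-Q5 had 0 counts in all control libraries and 121 in the Nav-Tsc2 libraries, at least 38.8-fold higher. It passed the low count filter only through the Nav-Tsc2 mice, a selection that favours higher values there. H2-Bl, H2-T-ps, H2-M10.2 and H2-M6-ps also passed only through the Nav-Tsc2 mice. The median log2 fold change over the 7 was 1.52, also with H2-Q5 at its bound. That median is the value of H2-Bl, a gene selected in this way, so it is a description only. The genes of the 7 that were not so selected went opposite ways, H2-K2 at 2.59 and H2-M11 at -3.65 (not called).

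Over the other heavy chain genes and 6 lists of pathway genes that are not among the 30, 11 of 80 genes tested were called higher and 5 lower (20.0%), near the 17.1% of all genes. Leaving out any 1 Nav-Tsc2 mouse left 6 or 7 higher. Of 12 partners in the endoplasmic reticulum 1 rose, namely Ero1l, an oxidase for disulfide bonds (1.04 ± 0.15 SE, adjusted p = 0.00151), and the list median was 0.18. Of 7 cytosolic and endosomal peptidases Lap3 rose, with 74.1 to 136 CPM in control and 214 to 262 CPM in Nav-Tsc2 mice (1.34 ± 0.19 SE, adjusted p = 0.00125), and Blmh fell (-0.78 ± 0.11 SE, adjusted p = 0.00099). Of 18 genes of the constitutive proteasome and its other activators, the activators Psme3 (0.62 ± 0.12 SE, adjusted p = 0.00622) and Psme4 (0.51 ± 0.10 SE, adjusted p = 0.0056) rose, and the list median was -0.13.

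Of 21 regulators tested, Stat3 (0.61 ± 0.10 SE, adjusted p = 0.00225) and Rela, a subunit of NF-kB (0.64 ± 0.18 SE, adjusted p = 0.0343), rose. Irf9, part of the complex that binds interferon elements (-0.76 ± 0.20 SE, adjusted p = 0.0237), and Rfxank, part of the factor on MHC promoters (-0.74 ± 0.19 SE, adjusted p = 0.0227), fell. The median over the 21 was 0.15. Of 14 genes of the class II pathway 8 were tested, of which H2-DMa rose (0.66 ± 0.20 SE, adjusted p = 0.0464) and Lgmn, a lysosomal protease, fell (-1.04 ± 0.16 SE, adjusted p = 0.00197), with a list median of -0.44. Of 10 class I-like genes outside the H2 region 7 were tested, with a median of 0.47. Fcgrt, the heavy chain of the neonatal Fc receptor, which also pairs with B2m, fell (-1.62 ± 0.32 SE, adjusted p = 0.0066). Raet1e, a ligand of NKG2D (4.64 ± 1.33 SE), was called higher but passed the filter only through the Nav-Tsc2 mice, and its 17 control counts came from 1 library. Procr rose (2.26 ± 0.68 SE, adjusted p = 0.0425). Of 8 housekeeping genes Pgk1 rose (0.96 ± 0.10 SE, adjusted p = 0.000298), and their median was -0.18.

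Sex was not used in choosing the genes. In the model with genotype and sex, 0 of the 29 were called between female and male mice by edgeR, with 0 at an unadjusted p under 0.05 and a smallest adjusted p of 0.745, and DESeq2 called 0, with 1 at an unadjusted p under 0.05. Over all 17178 genes edgeR called 0.0291%, and DESeq2 called 50 higher and 58 lower in females. For the difference of the genotype effect between sexes edgeR called 0 of the 29, with 3 at an unadjusted p under 0.05, and DESeq2 called 0, also with 3. Over all 17178 genes edgeR called 0.00582%, and DESeq2 called 116 with a positive and 180 with a negative interaction. The 3 were H2-K1 (interaction -0.51 ± 0.20 SE on the log2 scale, edgeR p = 0.0368, adjusted p = 0.498), H2-T22 (1.09 ± 0.43 SE, p = 0.0378, adjusted p = 0.502) and B2m (0.57 ± 0.24 SE, p = 0.046, adjusted p = 0.525), and none of them passed.

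Markers of other cell types were summed in each mouse. The macrophage list of 12 genes summed to 4.64, 5.98, 3.20 and 10.4 CPM in control mice and to 9.89, 15.5, 11.7 and 22.4 CPM in Nav-Tsc2 mice (difference of the means of log2(sum + 1) 1.204, exact permutation p = 0.0571, adjusted p = 0.152 over 8 lists, two-sided). The endothelial list of 12 genes summed to 18.2 to 34.4 CPM and 23.8 to 39.8 CPM (exact permutation p = 0.457, adjusted p = 0.61). The list of 7 pericyte and smooth muscle genes summed to 5.59 to 46.3 CPM and 20.6 to 149.6 CPM (exact permutation p = 0.143, adjusted p = 0.286), and that of 12 T and NK cell genes to 0.454 to 4.72 CPM and 2.28 to 2.92 CPM (exact permutation p = 0.971). No list passed, and 0.0286 is the smallest p the exact test of 4 against 4 mice allows. A list that separated the genotypes fully could still fail after adjustment over 8 lists, so failing to pass does not show equal levels. The lists of satellite glia and of red blood cells, both lower in Nav-Tsc2 mice, had that p (adjusted p = 0.114), the fibroblast list had p = 0.743 and the neuron list p = 0.371 in the same exact permutation test. In the satellite glia list S100b was at 712 to 1112 CPM in control and 27.9 to 187.5 CPM in Nav-Tsc2 mice. Pmp22 was at 1261 to 1595 and 1435 to 1726 CPM and overlapped. The lower sum of this list therefore follows S100b and does not show fewer glial cells.

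Of the 2 most abundant genes in each list, Cx3cr1 and Pdgfrb were called higher, S100b and Snap25 were called lower, and the other 12 (Egfl7, Esam, Csf1r, Trac, Cd4, Pmp22, Dcn, Col1a2, Rgs5, Alas2, Hba-a1 and Tubb3) were not called. Cx3cr1 was at 0.0181 to 0.0602 CPM in control and 2.82 to 9.33 CPM in Nav-Tsc2 mice. Markers chosen after their values were seen were Flt1, at 0 to 0.0602 and 3.67 to 12.7 CPM, Ly6c1, at 0 to 0.0339 and 1.02 to 4.53 CPM and Acta2, at 0.0181 to 0.237 and 6.03 to 8.06 CPM. These 4 passed the low count filter only through the Nav-Tsc2 mice, so their values are a description. Of other macrophage markers, Csf1r was at 0.0189 to 2.19 CPM in control and 2.22 to 4.94 CPM in Nav-Tsc2 mice, C1qb was at 1.02 to 3.19 CPM and 0 to 2.03 CPM, and Aif1 was at 0.0181 to 1.82 and 0.905 to 1.46 CPM, and none of these 3 was called. Of the listed genes that were tested, 3 of 6 endothelial, 2 of 5 pericyte and smooth muscle and 1 of 7 macrophage genes were called higher and 0 lower. These include the 4 that passed only through the Nav-Tsc2 mice. Of 14 satellite glia and Schwann cell genes 1 was lower, and 0 of 3 T and NK cell, 6 fibroblast and 3 red blood cell genes were called. Over all genes 9.12% were called higher. C1qa, Cldn5 and Cd3e, also named after their values were seen, were each at or under 0.0846 CPM in every mouse. Pecam1 was at 0 in 3 mice and reached 1.59 CPM in control mouse 4. In bulk RNA of sorted cells, more cells of a type and more RNA per cell cannot be told apart, and the part of such cells in the class I values was not tested. Without the 6 libraries over 20 CPM of Rgs5, 9 of the pathway genes were called higher and 3 lower, where 9.35% of all genes were called against 17.1% with all libraries. The calls of H2-Q4, H2-Q7, H2-M5 and Psmb8 were lost, with log2 fold changes of 2.34, 2.90, 3.50 and -0.86 that were close to those with all libraries.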

How the data were processed

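RNA-seq libraries were made with the SMARTer Ultra Low RNA kit from 100 sorted cells each. Per the submitters' processing notes, the authors used STAR, HTSeq and the mm10 build (versions and the strand setting are not given in the sources used here), and they deposited raw counts per gene and library. A deposited table of the authors' own DESeq2 comparison (fold changes, p-values and normalized means) was not used.

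Each mouse's 3 libraries were added up, which gave 47959617 to 61290435 counts per mouse. Rows that name no gene were left out of library sizes. They were 47.6 to 51.5% of the control totals and 49.0 to 55.9% of the Nav-Tsc2 totals, alignments to more than 1 place included. Of 47643 identifiers 47224 matched the GENCODE annotation of GRCm38. Genes were kept by filterByExpr, normalized by TMM and tested with the quasi-likelihood test of edgeR 4.0.16 (R 4.3.3) with Benjamini-Hochberg adjustment over 17178 genes. Each standard error was derived from the fold change and its F statistic. Sex was tested beside genotype, and as an interaction. Marker lists were summed as CPM and compared on log2(sum + 1) by an exact permutation test (scipy, two-sided). The models were tested on simulated data. DESeq2 1.42.0 and limma 3.58.1 served as alternatives. The count of reads without molecular identifiers means that counting intervals (exact, 95%) and the floor of 3 counts cover counting error only. Uniqueness is the share of 50-base windows of a gene's exons found in no other annotated gene, and it was measured in the reference sequence only.

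The genes, the lists and the tests were chosen with earlier results of these data known. Outside the 30 genes, the text names Tsc2, up to 2 called genes per direction and list with the smallest adjusted p, and up to 3 per direction among other H2 region genes. Of each marker list it names the 2 genes with the highest mean CPM. Cldn5, Pecam1, Flt1, Ly6c1, Acta2, C1qa, C1qb, Aif1, Cd3e and Psmb5 were named after their values were seen. Pecam1, Cldn5, C1qa and Cd3e were under the low count filter. Libraries of 1 mouse are technical, and p-values measure the spread between mice.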

Additional observations from a re-analysis of the deposited data

Results flagged for a closer look

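In 60 groups of 4 mice (30 genes, 2 genotypes), 5 held a mouse far from the other 3 by Dixon's test, and chance alone flags about 1 in 20 groups, or 3 here. H2-Q4 was at 0.663 CPM in control mouse 2, where the other control mice were at 0.108 to 0.186 CPM. H2-M5 was at 0.407 CPM in control mouse 1, against 0 to 0.0602 CPM in the others. H2-M2 was at 0.0362 CPM in control mouse 3, which is 2 counts in 1 library, and at 0 in the others. H2-T3 was at 0.559 CPM in Nav-Tsc2 mouse 4, against 0.0177 to 0.098 CPM in the others. Tapbp was at 64.0 CPM in Nav-Tsc2 mouse 2, against 51.6 to 52.9 CPM in the others, and still below all control mice.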

How the results depend on the processing

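The pathway genes called higher numbered 9 to 13 and those called lower 3 to 5 over 16 alternatives, against 12 and 4, and the calls of B2m, H2-K1, H2-D1, H2-Q2, H2-Q10, Gm8909, H2-T22, H2-T24 and Tapbp were the same in each, as were those of H2-Q1 and H2-M10.3 in the 15 that kept them. H2-M2 lost its call with DESeq2. Sex and interaction calls among the 29 were 0 in each of the 13 alternatives run for them. The marker lists were recomputed with DESeq2 size factors and with each mouse left out, where the exact test of 3 against 4 mice cannot pass the threshold. H2-Q6 was also called with DESeq2, with sex as a covariate and in the fit of 24 libraries (limma, mouse as a random effect), Psmb9 was called with DESeq2, Erap1 without control mouse 3, and Psme1 without control mouse 2, without Nav-Tsc2 mouse 1 and in the 24 libraries. Psmb8 lost its call with the replicate block and in the 24 libraries.

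The median log2 fold change of the genes in the H2 region was 0.56 in the 24 libraries, against 1.83, and 1.71 to 1.99 when 1 mouse was left out. The fit of 24 libraries did not keep H2-Q1, H2-Q7, H2-M2 and H2-M10.3, so its median is over fewer genes. H2-K1 and H2-D1 were at 1.05 and 1.89 in that fit, against 1.03 and 1.83. The median of the genes outside the H2 region was -0.22 in the 24 libraries and -0.23 without the 6 libraries over 20 CPM of Rgs5. It was -0.22 to 0.019 when 1 mouse was left out, with 0.019 without control mouse 2. Of the other pathway genes 11 were called higher and 5 lower. DESeq2 called 8 lower, leaving out 1 mouse gave 6 to 14 higher and 3 to 7 lower (6 without Nav-Tsc2 mouse 2, 7 without Nav-Tsc2 mouse 1, 3 or 4, and 3 lower without Nav-Tsc2 mouse 2 or 3), and leaving out the Rgs5 libraries gave 7 higher. Of the other H2 region genes 7 were higher and 4 lower without those libraries, against 20 and 7. The cause of the other moves was not tested. Leaving out 1 mouse turned the sign of Psmb10 (-0.00079 to 0.077), Psme2 (-0.031 to 0.092) and Nlrc5 (-0.58 to 0.19), none of which was called.

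Animals with the same number in both genotypes share only a number: their deviations from the group means correlated at -0.048 to 0.054 over 8239 genes. With the replicate block 12 pathway genes were higher and 3 lower, and 1329 of all genes were higher and 1116 lower, against 1567 and 1374.

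Genes at fewer than 3 counts per control mouse have no measurable fold beyond the bounds given, and the shallowest library holds 8339220 counts.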
